A study of Mus musculus with 2 samples.

Results

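Mir132 and Mir212 are neighbouring microRNA genes that are cut from 1 primary transcript, and they are known as a hypertrophy cluster of the heart. They were found by matching the gene identifiers of the count files to GENCODE M21 symbols, and both were listed among the 2202 miRNA genes counted. The counts come from microRNA libraries of whole heart tissue of B6CASTF1/J mice, which are hybrids of C57BL/6J and a CAST strain. All animals were male and 25 days old, with neither a treatment nor an engineered allele named in the labels. The 2 libraries, biological replicates 2 and 1, form 1 group with no control. The labels give the animals separate numbers and 1 donor identifier, and if the libraries are not from separate animals, the spread between them is technical.

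A microRNA pairs through its seed, bases 2 to 8 counted from the 5′ end, with messenger RNAs and lowers their output. In neurons the Mir132 and Mir212 cluster is switched on by the activity-dependent factor CREB. In mice, work on the heart showed that loss of the cluster protects against pressure overload and that extra copies in cardiomyocytes enlarge the heart, with the growth-restraining factor FoxO3 as a direct target. miR-132 is also made by endothelial cells and pericytes, where it acts in vessel growth.

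The sequences of the members are shown first because their 3p arms carry the seed they share. They are from RefSeq (GRCm38.p6), where both members matched, and run 5′ to 3′ with the seed in capitals.
mmu-miR-132-3p: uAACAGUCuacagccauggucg
mmu-miR-212-3p: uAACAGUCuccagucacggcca
mmu-miR-132-5p: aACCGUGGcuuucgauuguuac
mmu-miR-212-5p: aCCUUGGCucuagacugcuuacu
In the hairpins, printed next, the capitals mark the 5p arm and then the 3p arm.
Mir132 hairpin: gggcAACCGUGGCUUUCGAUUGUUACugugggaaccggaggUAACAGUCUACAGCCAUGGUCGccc
Mir212 hairpin: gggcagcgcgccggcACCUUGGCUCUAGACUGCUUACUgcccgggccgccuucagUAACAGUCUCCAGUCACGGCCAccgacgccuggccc

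The 3p arms shared the seed AACAGUC, and no other of the 1738 mature entries in the table carried it. They were identical over the first 9 bases and at 17 of 22 positions. The differences, counted from base 1 with the miR-132-3p base first, were A10C, C14U, U17C, U20C and G22A, all outside the seed. The seeds of the 5p arms, ACCGUGG in miR-132-5p and CCUUGGC in miR-212-5p, differed, and each occurred in 1 mature entry. Base 1 of miR-212-5p lined up best with base 2 of miR-132-5p, which gave 14 identical bases of 21, against 9 of 22 when both started at base 1. The counts are per gene and join the arms, so the levels below do not separate the 3p from the 5p product.

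Reads of the members could be told apart from those of other miRNA genes. The longest run of bases that the Mir132 hairpin shared with any other of the 2201 hairpins, on either strand, was 11, and for Mir212 it was 12. The members shared a run of 10 bases with each other. By comparison, 1087 of the 2202 listed genes and 78 of the 356 detected ones have 20 bases in common with a further miRNA locus, so that their reads can fit several places and drop out of their counts. Copies outside the listed genes were not searched. The GC content was 57.6% in the Mir132 hairpin and 69.2% in that of Mir212, against a median of 50.8% over all listed hairpins, and 96.4% of these had a lower GC content than Mir212.

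Both genes lie on the plus strand of chromosome 11 in mm10, Mir212 (ENSMUSG00000065590.1, 91 bases) at chr11:75173388-75173478 and Mir132 (ENSMUSG00000065537.2, 66 bases) at chr11:75173682-75173747. A gap of 203 bases separates them. Both are in intron 1 of the non-coding gene 1700016P03Rik (75172560 to 75177633, plus strand, 3 exons), which GENCODE marks as a host of small RNAs. That intron is 1380 bases long, and Mir212 starts 828 bases after the start of the host. Upstream lies the tumour suppressor gene Hic1, on the minus strand (75164565 to 75169519). Downstream lie Ovca2 (75175942 to 75178835), which overlaps the host on the minus strand, and Dph1 (75177643 to 75191241), an enzyme of diphthamide synthesis. No other miRNA gene falls in this stretch.

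**Figure D1:**
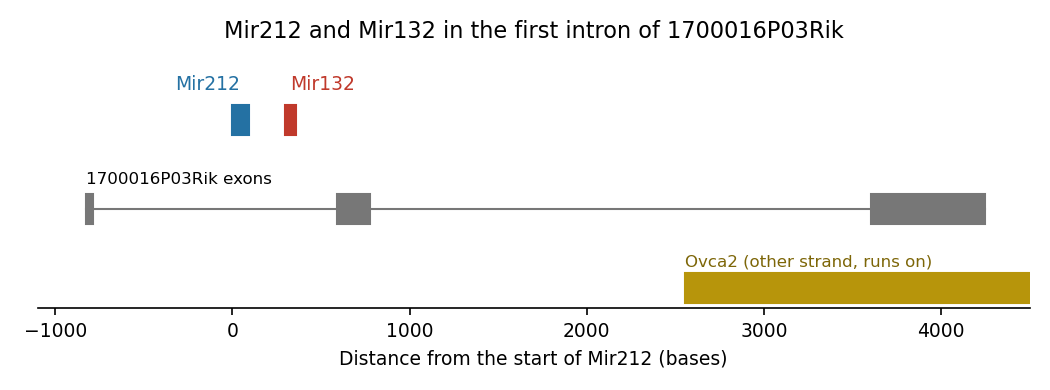
Map of the locus by distance in bases from the start of Mir212. Grey boxes are the 3 exons of 1700016P03Rik, coloured boxes the hairpins and the gold box the start of Ovca2 on the other strand; both hairpins sit in the first intron, 203 bases apart.

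Mir132 had 4656 counts in replicate 2 and 1944 counts in replicate 1. As counts per 1000000 assigned counts of the library (CPM), these were levels of 890 CPM in replicate 2 (exact Clopper-Pearson 95% interval 865 to 916) and 394 CPM in replicate 1 (377 to 412). The intervals cover counting error only, and they do not overlap. Mir132 thus made up 0.0890% of assigned counts in replicate 2 and 0.0394% in replicate 1, and its mean level was 642 ± 351 CPM (SD, n = 2).

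Mir212 had 88 counts in replicate 2 and 89 counts in replicate 1. Its level was 16.8 CPM in replicate 2 (13.5 to 20.7) and 18.0 CPM in replicate 1 (14.5 to 22.2), with intervals that overlap over most of their length. The mean level was 17.4 ± 0.865 CPM (SD, n = 2). A read of a mature miRNA spans nearly the whole product, so no length scaling was used for levels of different genes. Adapter ligation favours some sequences over others, so ratios between genes carry a bias that was not measured here.

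**Figure D2:**
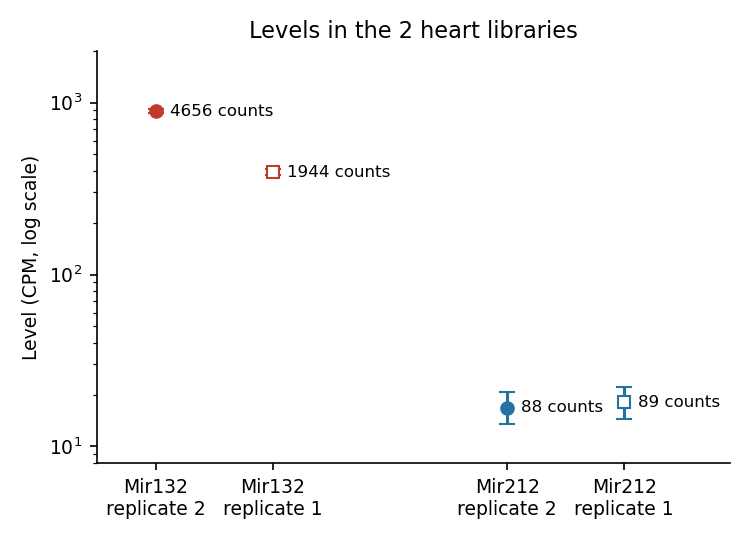
Levels of Mir132 and Mir212 in replicate 2 (filled) and replicate 1 (open), in CPM on a log axis, with exact 95% intervals for counting error and the counts beside the points. Mir132 is at 890 and 394 CPM, with intervals apart, and Mir212 at 16.8 and 18.0 CPM, with intervals that overlap.

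Mir132 was the far more abundant of the pair in both hearts. There were 52.9 Mir132 counts for each Mir212 count in replicate 2 (exact 95% interval 42.9 to 66.1) and 21.8 in replicate 1 (17.7 to 27.3). On the log2 scale the ratio of Mir132 over Mir212 was 5.72 in replicate 2 and 4.44 in replicate 1, with a mean of 5.08 ± 0.90 (SD, n = 2). Mir212 supplied 1.85% of the pair's counts in replicate 2 (1.49 to 2.28%) and 4.38% in replicate 1 (3.53 to 5.36%). The summed level of both genes, 907 CPM in replicate 2 and 412 CPM in replicate 1, therefore follows Mir132.

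Mir132 was 2.26-fold higher in replicate 2 than in replicate 1 (exact 95% interval 2.14 to 2.38), a log2 ratio of 1.17. The exact binomial test compares the counts of the 2 libraries and, adjusted over the 356 detected genes by Benjamini-Hochberg, gave p = 4.27e-217. Genes with 10 or more counts in each library were taken as detected. This p covers counting error and not the spread between animals, since the difference has no replicate check. Mir212 was 0.932-fold in replicate 2 relative to replicate 1 (0.686 to 1.27), a log2 ratio of -0.10, with an adjusted p of 0.747 by the same exact test. Within counting error, the interval of Mir212 allows a change of up to 1.27-fold upward and excludes the 2.26-fold seen for Mir132. It does not cover the spread between animals either.

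So 1 of the 2 members was called, against 63.5% of all detected genes called in either direction and 32.9% called as higher and 30.6% as lower in replicate 2. A call alone is therefore not particular to Mir132. By size, Mir132 was also among the 17.7% of detected genes whose level differed by more than 2-fold. Its log2 ratio ranked 20th from the highest and 35th by absolute size among 356 detected genes, and was 1.37 times their SD of 0.86. The common biological coefficient of variation between the libraries, from edgeR, was 0.389. With 1 library per heart, a difference between the hearts cannot be told apart from one between the library preparations. In tissue, more cells that hold a miRNA and more of it per cell cannot be told apart either.

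The ratio of the members differed between the hearts beyond counting error. The odds of Mir132 over Mir212 were 2.42 times higher in replicate 2 (95% interval 1.77 to 3.31, Fisher's exact test, two-sided p = 1.48e-08). This value does not depend on how the libraries are scaled. The log2 ratio between the hearts was 1.28 higher for Mir132 than for Mir212. The precision is set by Mir212, with its 88 and 89 counts.

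Among genes of like level, Mir132 stood near the upper end of ratios. Of the 30 other detected genes within 2-fold of its mean CPM, 19 were higher in replicate 2, 10 were lower and 1 was not called, and 2 had a higher log2 ratio than Mir132. Their log2 ratios ran from -3.73 to 4.07 with an SD of 1.20. Of the 77 other detected genes within 2-fold of Mir212, 14 were higher, 22 lower and 41 not called, with log2 ratios from -2.65 to 2.48. Of these 77, 67 had a larger absolute ratio than Mir212.

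**Figure D3:**
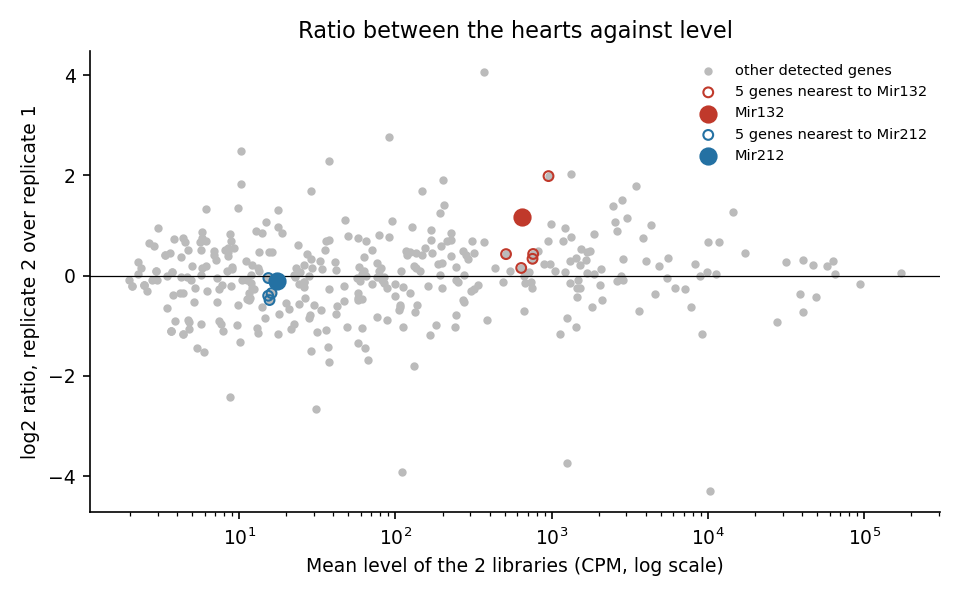
Log2 ratio of replicate 2 over replicate 1 against mean level (CPM, log axis) for the 356 detected miRNA genes; filled large points are the members, and rings the 5 genes nearest to each in level over both libraries. Mir132 lies at 1.17, above 4 of its 5 nearest genes, and Mir212 lies at -0.10 within its own.

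By mean CPM, Mir132 ranked 87th of the 356 detected genes, 77th in replicate 2 and 92nd in replicate 1. Next above it were Mir532 at 665 ± 0.261 CPM and Mir25 at 665 ± 223 CPM, and next below were Mir497 at 638 ± 47.8 CPM and Mir10b at 539 ± 24.6 CPM (SD, n = 2 each). None of these 4 differs from Mir132 beyond its spread of 351 CPM, and 25 other detected genes have a range over the hearts that meets that of Mir132. Mir212 ranked 240th by mean CPM, 236th in replicate 2 and 238th in replicate 1. Its neighbours in that order were Mir375 at 17.7 ± 9.65 CPM and Mir29b-1 at 17.7 ± 10.7 CPM above it, and Mir7688 at 16.3 ± 3.78 CPM and Mir323 at 16.1 ± 2.76 CPM below it. Mir29b-1 shares 20 bases with another miRNA gene, so its level may be listed too low. The range of Mir212 over the hearts meets that of 28 other detected genes.

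The genes with the pattern most like that of each member were taken by the distance in log2 CPM over the 2 libraries. For Mir132 these were Mir542 (distance 0.62), Mirlet7a-1 (0.72), Mir497 (0.74), Mir30c-2 (0.76) and Mir107 (0.78). Of the 5, Mir107, which is at 1523 CPM in replicate 2 and 385 CPM in replicate 1, had a larger ratio than Mir132 at 3.96-fold. The other 4 were between 1.11-fold and 1.35-fold higher in replicate 2. Mirlet7a-1, Mir30c-2 and Mir107 share 20 bases with another miRNA gene. For Mir212 the nearest were Mir362 (0.058), with 91 counts in each heart, Mir323 (0.25), Mir543 (0.26), Mir8114 (0.35) and mmu-mir-3535 (0.37). None of these 5 was called between the hearts, with counts between 68 and 91 in replicate 2 and between 77 and 91 in replicate 1. With 2 libraries, a short distance says only that levels are close in both.

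Neighbouring miRNA genes gave a scale for the difference between the members. Adjacent detected genes on 1 strand within 1 kb formed 63 pairs, of which 38 (60.3%) had a ratio that differed between the hearts by Fisher's exact test after adjustment over the pairs. The pair Mir212 and Mir132 is 1 of these 38, so a shift of the ratio within a pair is common in these libraries. By the difference in mean level, 5.08 on the log2 scale, the pair ranked 8th of 63, against a median of 3.01. By the difference of the log2 ratios between hearts, 1.28, it ranked 11th of 63, against a median of 0.53. Over the 38 pairs in which neither gene shares 20 bases with another miRNA gene, it ranked 3rd by level and 6th by the difference of ratios, with medians of 2.77 and 0.50.

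Of the 63 pairs, 18 share a seed, as the members do. Among these 18 the pair Mir212 and Mir132 ranked 3rd by difference in level, behind Mir29a with Mir29b-1 (7.46) and Mirlet7c-2 with Mirlet7b (5.34). It ranked 2nd by the difference of log2 ratios, behind Mir15b with Mir16-2 (1.52). Each pair named as ahead of it holds a gene that shares 20 bases with another miRNA gene. Lost reads may therefore affect the differences of those pairs. In Mir221 and Mir222, a vascular pair that also shares a seed, both genes were higher in replicate 2 and their log2 ratios, 0.83 and 1.69, were 0.86 apart. In Mir93 and Mir106b, of a cluster that promotes proliferation, both were lower and were 0.18 apart.

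**Figure D4:**
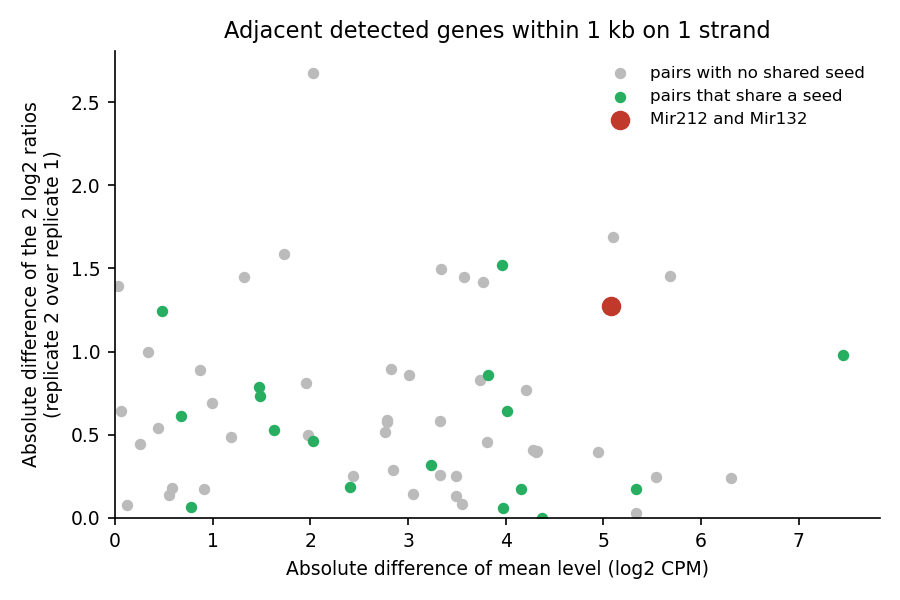
Absolute difference of mean level (log2 CPM) against the absolute difference of the log2 ratios between hearts for the 63 pairs of adjacent detected miRNA genes within 1 kb. Green points share a seed. The members, the large red point at 5.08 and 1.28, lie above the medians of the pairs, 3.01 and 0.53.

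Other miRNAs known to promote hypertrophy or remodelling of the heart formed a list of 16 genes, of which 15 were detected. Of these, 8 were higher in replicate 2, 3 were lower and 4 were not called, where 32.9% of all detected genes were higher and 30.6% lower. The median log2 ratio of the list was 0.83, against 0.02 over all 356 detected genes. By mean CPM, 11 of the 15 were above Mir132, and 5 had a higher log2 ratio. The exact test calls smaller ratios at higher counts, so the shares over all detected genes are an unlike scale for abundant genes. Of the 30 other detected genes within 2-fold of Mir132 in level, 19 were higher. Mir22, a regulator of muscle growth, had a log2 ratio of 1.26, Mir27b 1.02 and Mir21a, a miRNA of fibroblast survival, 1.79. Mir23a was lower in replicate 2, at -0.73. Mir199a-1 had 0 counts in both hearts, and it, Mir23a, Mir27b and 2 others of the list share 20 bases with another gene.

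MiRNAs taken from earlier work as restraining hypertrophy formed a list of 17 genes, of which 11 were detected. The direction assigned to each gene was not tested here. Of these, 8 were higher in replicate 2, 1 was lower and 2 were not called, beside the same 32.9% higher and 30.6% lower over all detected genes. The median log2 ratio was 0.22. The 4 most abundant, Mir378a, Mir30d, Mir30a and Mir29a, were higher by log2 ratios of 0.05, 0.45, 0.08 and 0.33. By mean CPM, 6 of the 11 were above Mir132, so the shares over all detected genes are an unlike scale here too. The muscle genes Mir1a-1 and Mir1a-2 were not called, at -0.30 and -0.26. In this list 12 of 17 members share 20 bases with another gene, whereas neither Mir132 nor Mir212 does. Both lists were chosen with earlier results of these data known, so their counts are a description. Mir208a, Mir21a, Mir221 and Mir155 of the promoting list, among others, recur in the cell type lists below. So do Mir1a-1, Mir1a-2 and Mir150 of the restraining list, so the lists overlap and do not count separate genes.

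Markers of the cell types of a heart moved between the libraries as well. The neuron list of 15 genes, which holds miRNAs of the tissue where Mir132 is best known, had 7 detected members, 6 of them called as lower in replicate 2 and none as higher, where 30.6% of all detected genes were lower. Its summed level was 390 CPM in replicate 2 and 856 CPM in replicate 1, opposite in direction to Mir132. Mir137 had 305 counts in replicate 2 and 1010 in replicate 1. Mir128-1, Mir138-1 and Mir138-2, which share bases with copies at other loci, had log2 ratios of -1.02, -0.89 and -1.35. The defining neuron genes Mir124a-1, Mir124a-2 and Mir124a-3 and also Mir9-2 had 0 counts in both hearts, and a count of 0 leaves room for 0.574 CPM in replicate 2 or 0.608 CPM in replicate 1, but these genes share bases with copies elsewhere and lose such reads.

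The smooth muscle and fibroblast list had 4 of 5 members detected, all higher in replicate 2, with Mir199a-1 at 0 counts and a summed level of 45962 CPM in replicate 2 and 33433 CPM in replicate 1. The endothelial list had 4 of 5 detected, 3 higher and 1 lower, at 72914 CPM in replicate 2 and 59413 CPM in replicate 1. In the leukocyte list, whose 5 members were all detected, 3 were higher, 1 was lower and 1 was not called, at 6444 and 5437 CPM in replicates 2 and 1. The heart muscle list had 5 of 7 detected, 1 higher, 1 lower and 3 not called, at 6556 CPM in replicate 2 and 4531 CPM in replicate 1. The median log2 ratio of these 5 was -0.09. Mir133a-1, with 30 counts in replicate 2 and 3 in replicate 1, and Mir133a-2, with 7 and 6 counts, were not detected, and Mir1a-1 and Mir1a-2 averaged 2.57 and 37.8 CPM. These 4 genes share 20 bases with a copy at another locus, and the other 3 do not. Mir208a, from an intron of the cardiac myosin gene Myh6, was at 3562 CPM in replicate 2 and 1361 CPM in replicate 1. Mir499, from an intron of Myh7b, was at 2758 CPM in replicate 2 and 2933 CPM in replicate 1. Mir208a was higher in replicate 2, by a log2 ratio of 1.39, Mir499 was lower, at -0.09, and Mir208b was not called, at 192 CPM in replicate 2 and 191 CPM in replicate 1. The higher sum of the heart muscle list thus comes from Mir208a. The erythroid list, all 3 members detected with 1 higher and 2 lower, fell to 2335 CPM in replicate 2, against 22542 CPM in replicate 1. Mir132 thus moved the same way as the summed levels of the smooth muscle and fibroblast, endothelial, leukocyte and heart muscle lists. The median log2 ratios of these lists were 0.84, 0.56, 0.42 and -0.09. Mir132 moved by a larger factor than any of these sums, while Mir212 did not differ beyond counting error. In replicate 2, Mir126a held 69422 CPM of the endothelial sum and Mir143 34638 CPM of the smooth muscle and fibroblast sum. In each of these lists 1 detected member had a higher ratio than Mir132, Mir222 (3.22-fold) and Mir21a (3.47-fold). So did Mir208a (2.62-fold) of the heart muscle list, and 0 members of the leukocyte list did. The part of these cell types in the result for Mir132 was not tested.

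**Figure D5:**
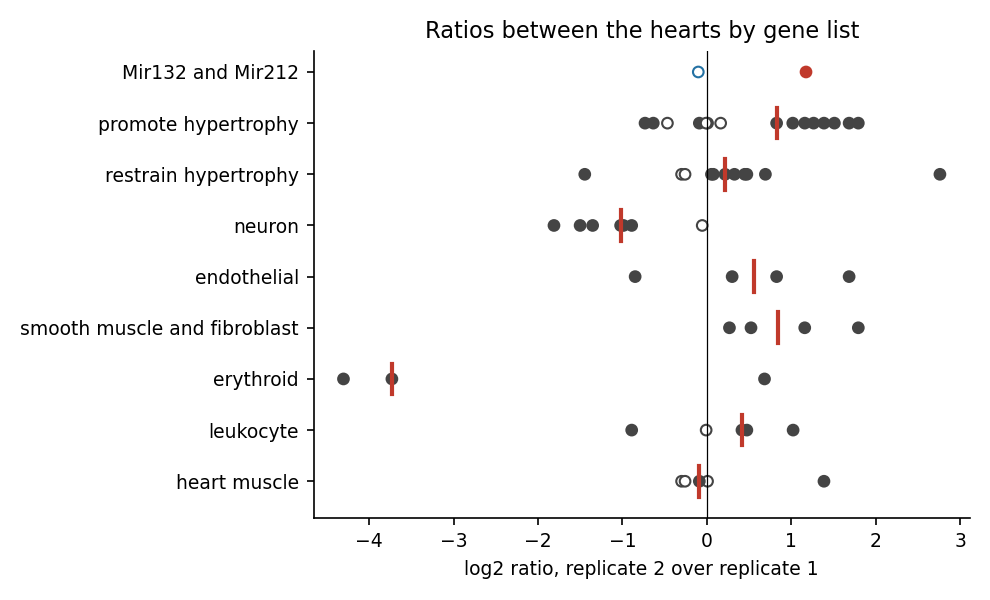
Log2 ratios of replicate 2 over replicate 1 for the members and for the detected genes of each list. A gene on several lists is drawn in each. Filled points were called by the exact test, open points were not, and red bars are list medians. Mir132 at 1.17 lies in the range of the hypertrophy lists of both directions and of the endothelial, smooth muscle and fibroblast, and heart muscle lists, and Mir212 at -0.10 lies near 0.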

How the data were processed

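Per the text deposited with the files, reads were counted against mm10 with GENCODE M21. Which aligner and counter were run is not given in the sources used here. The deposited files hold raw read counts, whole numbers for each miRNA gene, in 3 columns, unstranded and 1 per strand. The column of the gene's strand was used, where replicates 2 and 1 hold 5229819 and 4930853 assigned counts of 14363882 and 13210462 reads. The 4 entries that name no gene were left out of the totals. They hold unmapped reads (20.2% in replicate 2 and 15.0% in replicate 1), reads placed at several loci (37.4% and 41.6%), reads outside miRNA genes (6.00% and 6.03%) and ambiguous ones. Reads from CAST alleles were placed on the C57BL/6J sequence, whose effect on the members was not tested. The age is 25 days in the age and source labels, and the sample descriptions name months.

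CPM, log2 values with a pseudocount of 0.5 counts, exact binomial and Fisher's tests and Benjamini-Hochberg adjustment at 0.05 were computed in Python 3.11.15 with SciPy 1.17.1. The coefficient of variation was the common estimate of edgeR 4.0.16 with both libraries in 1 group. The quasi-likelihood test of edgeR needs a contrast between groups and could not be run. TMM and DESeq2 1.42.0 size factors were alternatives. The binomial test was tested on simulated counts with counting error only, so that run does not cover the spread between animals. All identifiers matched GENCODE M21, and 1 listed name, Mir146a, was matched as Mir146 by synonym. Named genes are the members, the 5 nearest to each, the 2 above and below each in rank, up to 4 of each list by level, and those at 0. Other names, Fisher's test over all pairs and the subsets of pairs were chosen after values were seen. Members and lists were chosen with earlier results of these data known.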

Additional observations from a re-analysis of the deposited data

How the results depend on the processing

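Under 8 alternatives of strand column, scaling (TMM, DESeq2 size factors, the median gene, or a total without the 10 most abundant genes), count minimum and pseudocount, the log2 ratio of Mir132 ran from 1.13 to 1.26 and stayed called, with adjusted p at most 5.13e-199 (exact test). That of Mir212 ran from -0.15 to -0.02 over 7 alternatives, none called (adjusted p from 0.585 to 1). A minimum of 100 counts removes Mir212 and with it the pair, so it gave no value. The count minimum does not enter the ratios, and the unstranded column held the same counts of both members. Those alternatives could change only the adjustment or the total. The number of genes called ran from 180 to 237, against 226. The levels depend on the total. With all reads as the total, Mir132 averaged 236 and Mir212 6.43 CPM. Without the 10 most abundant genes in the total they averaged 1925 and 52.6 CPM, and Mir212 averaged 24.0 CPM with unstranded counts, which have a smaller total. Leaving out each replicate in turn put Mir212 at rank 236 to 238 and the pair at rank 3 to 11 of 63 by level. The median log2 ratio of detected genes was -0.03 with TMM and 0.11 with DESeq2 size factors. These size factors came out as 1 for both libraries, so that setting left the counts unscaled. It gave the upper end of 1.26 for Mir132. No paired analysis was possible because there is 1 group. The 88 and 89 counts of Mir212 limit what can be said of its ratio. No ratio between hearts can be had without either library.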
